A study of Mus musculus with 4 samples.

Results

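The genes described here are the subunits of the transcription factor NF-kB and its inhibitors, the IkB proteins, in cultured 4T1 cells with and without a knockdown of Ldha. The list named 10 genes, and a probe set was assigned to a gene where its symbol in the platform annotation was exactly that of the gene. This gave 1 probe set each for 9 genes, Rela, Rel, Relb, Nfkb2, Nfkbia, Nfkbib, Nfkbie, Nfkbiz and Bcl3, among 22180 genes tested. Nfkb1, the gene of the p105 precursor of the p50 subunit, is not analysed here.

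4T1 is a mouse mammary carcinoma line. The control cells (scramble) carried a scramble shRNA and the knockdown cells (shLDHA) an shRNA against Ldha, which encodes the A subunit of lactate dehydrogenase. The knockdown cells were selected with 10 µg/ml puromycin and mixed, so they are a pool and not 1 clone; selection of the scramble cells is not mentioned in the labels, and selection and knockdown cannot be told apart. Both were cultured for 24 hours in complete RPMI medium, with no stimulus of NF-kB named, and 400 ng of total RNA was labelled for Affymetrix whole-transcript arrays, 2 arrays per group. The labels name no separate cultures. The spread behind every p-value is thus that of 4 arrays and may be technical only.

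NF-kB is a dimer of Rel family proteins. In the canonical pathway, IkB proteins hold dimers such as p50 with RelA or c-Rel in the cytoplasm until the IKK kinase complex marks the inhibitor for degradation. In the noncanonical pathway, the kinase NIK and IKK alpha drive the processing of the p100 product of Nfkb2 to p52, which acts with RelB. Genes of the family are themselves known as NF-kB target genes, so the family feeds back on its own transcription. Which members are targets in these cells was not tested. In epithelial tumour cells the pathway is known for driving cytokine and survival genes. The arrays measured transcripts, and neither protein processing nor the location of the factors was measured.

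The upstream promoter sequences of 4 members are shown because they carry the binding motif of the family that is described. RefSeq promoters of build GRCm38.p6 matched 7 of the 10 genes, with 9 promoters in all. Relb, Nfkbiz and Nfkb1 had none there. Each window of 300 bases, from 250 before to 50 after an annotated start, was searched on both strands for the kB consensus, the motif that Rel family dimers bind; it was the 1 motif searched. The 250 bases upstream are printed 5' to 3' on the gene's strand, with bases of a match in capitals.
Nfkb2, chr19:46304487-46304736, plus strand: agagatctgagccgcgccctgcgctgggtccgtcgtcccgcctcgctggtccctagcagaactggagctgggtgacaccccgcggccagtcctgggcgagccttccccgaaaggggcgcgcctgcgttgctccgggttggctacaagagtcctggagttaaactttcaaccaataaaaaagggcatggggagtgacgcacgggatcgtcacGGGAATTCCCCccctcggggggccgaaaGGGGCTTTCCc
Nfkbia, chr12:55492648-55492897, minus strand: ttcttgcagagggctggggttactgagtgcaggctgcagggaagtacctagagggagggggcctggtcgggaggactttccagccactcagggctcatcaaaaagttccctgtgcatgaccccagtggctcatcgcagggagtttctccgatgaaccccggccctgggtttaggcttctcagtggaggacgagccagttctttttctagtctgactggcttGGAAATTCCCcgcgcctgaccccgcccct
Rel, chr11:23770970-23771219, minus strand: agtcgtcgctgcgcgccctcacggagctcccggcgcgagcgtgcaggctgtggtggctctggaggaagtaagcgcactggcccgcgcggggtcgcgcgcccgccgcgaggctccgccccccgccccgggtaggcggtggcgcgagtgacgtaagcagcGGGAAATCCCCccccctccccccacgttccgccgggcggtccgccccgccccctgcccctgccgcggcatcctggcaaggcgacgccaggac
Nfkbie, chr17:45555450-45555699, plus strand: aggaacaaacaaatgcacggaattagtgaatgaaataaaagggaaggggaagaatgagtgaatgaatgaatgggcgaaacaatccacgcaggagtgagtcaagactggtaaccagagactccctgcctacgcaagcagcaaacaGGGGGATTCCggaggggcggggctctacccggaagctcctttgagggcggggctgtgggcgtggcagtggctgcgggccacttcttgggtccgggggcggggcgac

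The kB consensus was found in at least 1 promoter of 5 of the 7 matched genes, Nfkb2, Nfkbia, Rel, Nfkbie and Bcl3, and of 9.55% of all 27025 genes in the table. Nfkb2 had 3 annotated starts, and each of its windows held a match. In the window printed, matches began at positions -39, -38 and -11, where -1 is the base before the start. The match of Nfkbia began at -29, those of Rel at -92 and -91, and that of Nfkbie at -106. The match of Bcl3 began at 3, after its start, and lies outside the bases that a 250-base upstream window would show. The windows of Rela and Nfkbib held no match of these letters. A match is a description of the letters and not a bound site.

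All 9 measured family transcripts read lower in the knockdown cells, but to very different degrees. Nfkbiz, Relb, Bcl3, Nfkbia and Nfkb2 fell past the threshold, a limma adjusted p under 0.05 (Benjamini-Hochberg over all genes). Rel, Nfkbib, Rela and Nfkbie did not pass. The 5 of 9 that fell compare with 2.99% of all 22180 genes that passed in that direction, and 0 of the 9 rose, against 3.37% of all genes. These shares include dim genes, since no filter on level was used. In a fit of the 11090 genes at or above the median in their brighter group mean, 1359 were called lower. These included 8 of the 9. The median log2 change of the 9 was -0.52, against 0.01 over all genes tested. For all 9 genes both shLDHA arrays read below both scramble arrays, which held for 24.0% of all genes. In these bulk samples fewer cells with a transcript and less of it per cell cannot be told apart. The 9 genes share 4 arrays and are not replicates of each other.

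**Figure D1:**
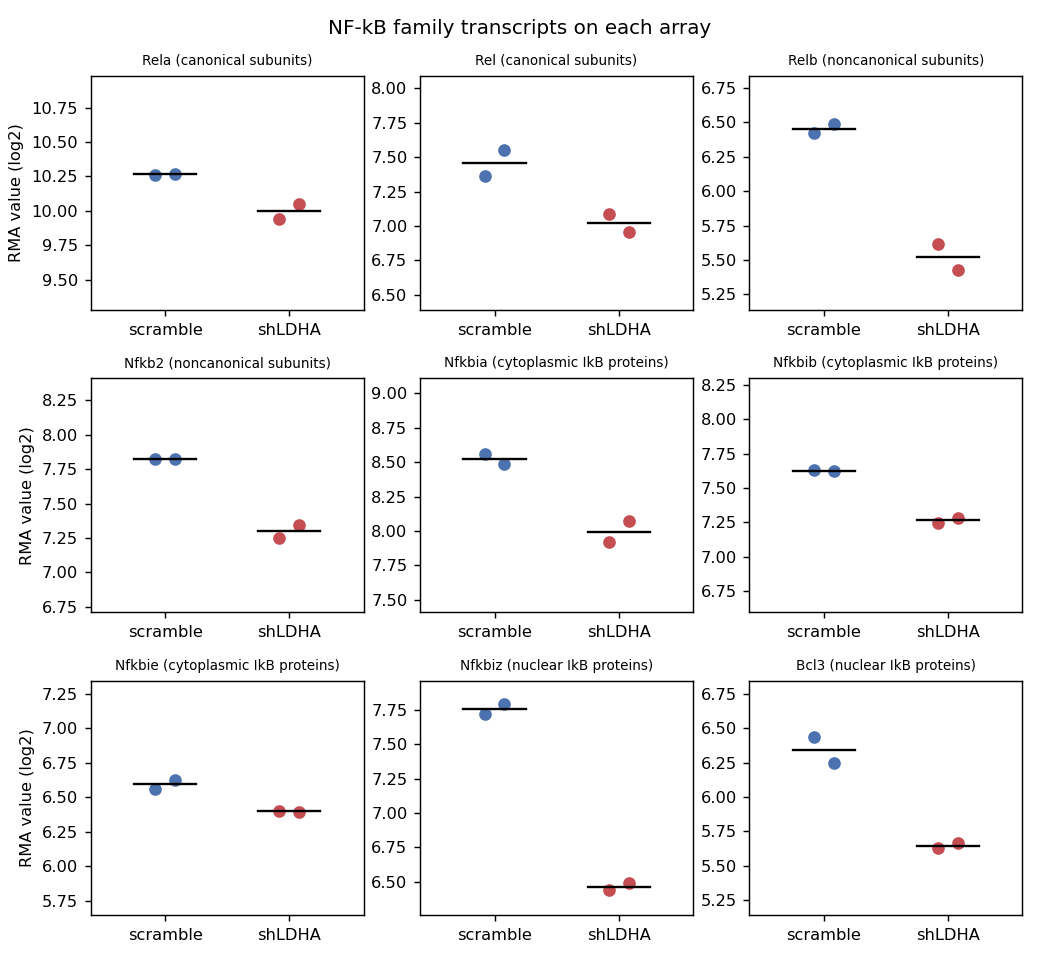
RMA expression values (log2) of the 9 NF-kB family transcripts on each array, with 2 points per group and a line at the group mean. Every axis spans the same width, so the steps can be compared between panels but the levels cannot; the step is widest for Nfkbiz (-1.29) and narrowest for Nfkbie (a log2 change of -0.20).

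Of the canonical subunits, neither measured gene passed. Rela encodes RelA (p65), the main transactivating subunit of the canonical dimer. It read 10.26 and 10.27 in scramble and 9.94 and 10.05 in shLDHA, in RMA log2 units as for all values below. Both knockdown arrays were low, yet the step was small: the log2 change was -0.27 (SE 0.09, 95% confidence interval -0.47 to -0.06), or 1.20-fold lower, with an adjusted p of 0.136 by limma. Of all genes, 8.51% fell by more than Rela.

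Rel encodes c-Rel, a canonical subunit best known in lymphocytes. It read 7.36 and 7.55 in scramble and 7.08 and 6.96 in shLDHA. The groups did not overlap, but the SD of the scramble arrays was 0.13, as for Bcl3 and wider than for the other 7 genes. The log2 change was -0.44 (SE 0.10, interval -0.68 to -0.19), 1.35-fold lower, with a limma adjusted p of 0.0605. The intervals of Rel and Rela are for single genes and are not adjusted for the number of genes.

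Both noncanonical subunits fell. Relb encodes RelB, the partner of p52. It read 6.42 and 6.48 in scramble and 5.62 and 5.43 in shLDHA. The lowest scramble array stood 0.81 above the highest shLDHA array. The scramble mean was 6.45 ± 0.04 and the shLDHA mean 5.52 ± 0.14 (SD, n = 2 each). The transcript was thus 1.91-fold lower, a log2 change of -0.93 (SE 0.10), with a limma adjusted p of 0.00501. Only 0.518% of all genes fell by more.

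Nfkb2 encodes p100, which holds RelB as an inhibitor until it is processed to p52. It read 7.82 and 7.82 in scramble and 7.25 and 7.34 in shLDHA. The scramble arrays were nearly equal and both knockdown arrays were low. The log2 change was -0.52 (SE 0.08, interval -0.73 to -0.32), or 1.44-fold lower, with an adjusted p of 0.0197 by limma. The call was lost without any 1 of the 4 arrays, where the adjusted p ran from 0.0737 to 0.0945.

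That a noncanonical subunit passed and a canonical one did not is no test of a difference between them. The difference itself was taken within each array, where the fixed offset of a probe set cancels between groups. Relb minus Rela was -3.84 and -3.78 in scramble and -4.33 and -4.63 in shLDHA, a shift of -0.67. The groups were apart, and the exact permutation test (two-sided) gave p = 0.333, the smallest that 2 against 2 arrays can give. With this number of arrays that test cannot reach 0.05.

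Since no probe set had exactly the symbol Nfkb1, 3 further pairs were compared with the same test, so the p-values were adjusted over 4 pairs. Relb minus Rel shifted by -0.50 and Nfkb2 minus Rela by -0.26, with no overlap of groups and an exact permutation p of 0.333 each (adjusted p = 0.444). Nfkb2 minus Rel shifted by -0.09, and its groups overlapped: 0.46 and 0.27 in scramble against 0.17 and 0.39 in shLDHA (exact permutation p = 0.667, adjusted p = 0.667). Of this last pair Nfkb2 passed the threshold and Rel did not, with log2 changes of -0.52 and -0.44.

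**Figure D2:**
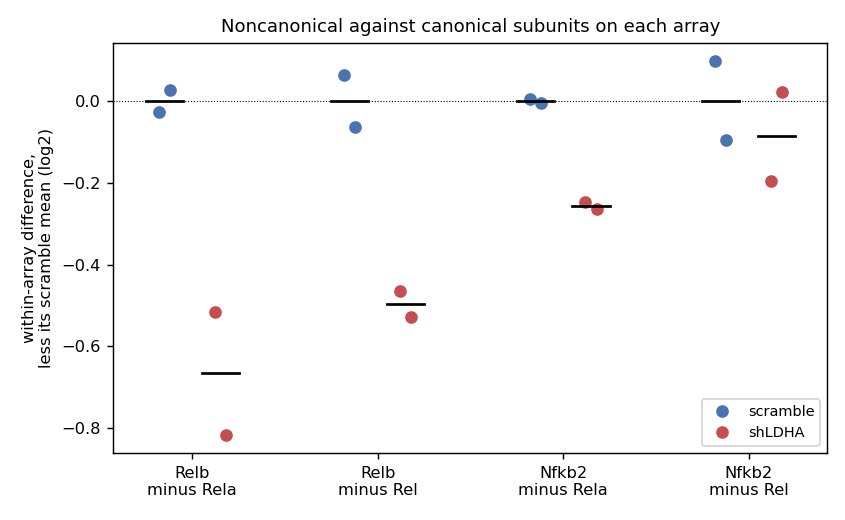
Difference between a noncanonical and a canonical subunit within each array (log2), less the scramble mean of that pair, with 2 points per group and a line at each mean. The shLDHA arrays lie below the scramble arrays for Relb minus Rela (mean shift -0.67), Relb minus Rel (-0.50) and Nfkb2 minus Rela (-0.26), and overlap them for Nfkb2 minus Rel (-0.09).

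Of the cytoplasmic IkB proteins 1 of 3, Nfkbia, fell past the threshold, and the differences among the 3 genes were not tested. Nfkbia encodes IkB alpha, the fast-acting inhibitor that NF-kB resynthesises to end its own response. It read 8.56 and 8.49 in scramble and 7.92 and 8.07 in shLDHA, with the knockdown arrays 0.42 or more below the scramble arrays. It fell by 0.53 on the log2 scale (SE 0.09), or 1.44-fold, with a limma adjusted p of 0.0259. The call was lost without any 1 array (adjusted p from 0.0686 to 0.110) and with the replicate number as a block (0.0556).

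Nfkbib encodes IkB beta, an inhibitor of the same dimers. It read 7.63 and 7.62 in scramble and 7.25 and 7.28 in shLDHA. The arrays of each group were close together, and the log2 change of -0.36 (SE 0.08, interval -0.55 to -0.16) just missed the threshold, with a limma adjusted p of 0.0543.

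Nfkbie encodes IkB epsilon. It read 6.56 and 6.63 in scramble and 6.40 and 6.39 in shLDHA. Its log2 change of -0.20 (SE 0.08, interval -0.40 to 0.00) was the smallest of the 9, with a limma adjusted p of 0.235, and 13.6% of all genes fell by more. Of the 5 genes with a kB consensus match in a promoter window, Nfkb2, Nfkbia and Bcl3 were called and Rel and Nfkbie were not. Of the 2 matched genes without one, Rela and Nfkbib, 0 were called. Nfkbiz and Relb were called but had no promoter to search. A link between a match and a call was not tested.

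The largest change among the 9 genes was that of Nfkbiz, 1 of the 2 nuclear IkB genes of the list. A further nuclear IkB gene outside the list, Nfkbid, did not pass (log2 change -0.19, limma adjusted p = 0.447). Nfkbiz encodes IkB zeta, an inducible nuclear protein that works with p50 dimers at secondary response genes such as Lcn2. It read 7.72 and 7.79 in scramble and 6.44 and 6.49 in shLDHA, a gap of 1.23 between the nearest arrays of the groups. The scramble mean was 7.76 ± 0.05 and the shLDHA mean 6.46 ± 0.04 (SD, n = 2 each). This was 2.45-fold lower, a log2 change of -1.29 (SE 0.08, interval -1.49 to -1.09), with a limma adjusted p of 0.00112. It ranked 46 among the 22180 genes by size of fall.

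Bcl3 encodes a nuclear IkB protein that binds p50 and p52 homodimers. It read 6.44 and 6.25 in scramble and 5.63 and 5.66 in shLDHA. Here the spread lay between the scramble arrays, and the shLDHA arrays were nearly equal. The log2 change was -0.69 (SE 0.10), or 1.62-fold lower, with a limma adjusted p of 0.0130. Without shLDHA replicate 1 or shLDHA replicate 2 the call was lost, and the highest adjusted p without 1 array was 0.0727.

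**Figure D3:**
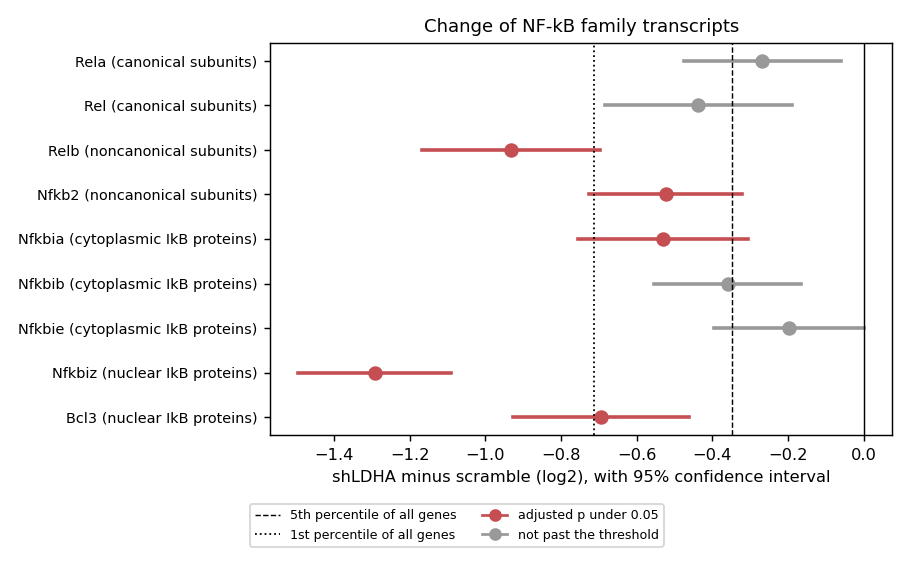
Log2 change (shLDHA minus scramble) of each NF-kB family transcript with its 95% confidence interval from limma, in red where the adjusted p was under 0.05. Relb (-0.93) and Nfkbiz (-1.29) lie below the 1st percentile of all genes (-0.71), and only Rela (-0.27) and Nfkbie (-0.20) lie above the 5th percentile (-0.35).

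The members differed in how far their calls rested on all 4 arrays. Nfkbiz passed in all 12 alternative settings and Relb in 11, the exception being the fit of every probe set (adjusted p = 0.0632). Bcl3 passed in 9, Nfkb2 in 7 and Nfkbia in 6. Rel, Rela and Nfkbib passed in 2 each, namely eBayes with a trend and the filter on dim genes (brighter group mean not under the median of all genes), and Nfkbie in 0. The sign of the change was the same for all 9 genes in each of these settings, although most of the settings could not have changed it. The genes called without 1 array numbered 3 without either scramble array (Bcl3, Nfkbiz and Relb) and 2 without either shLDHA array (Nfkbiz and Relb).

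**Figure D4:**
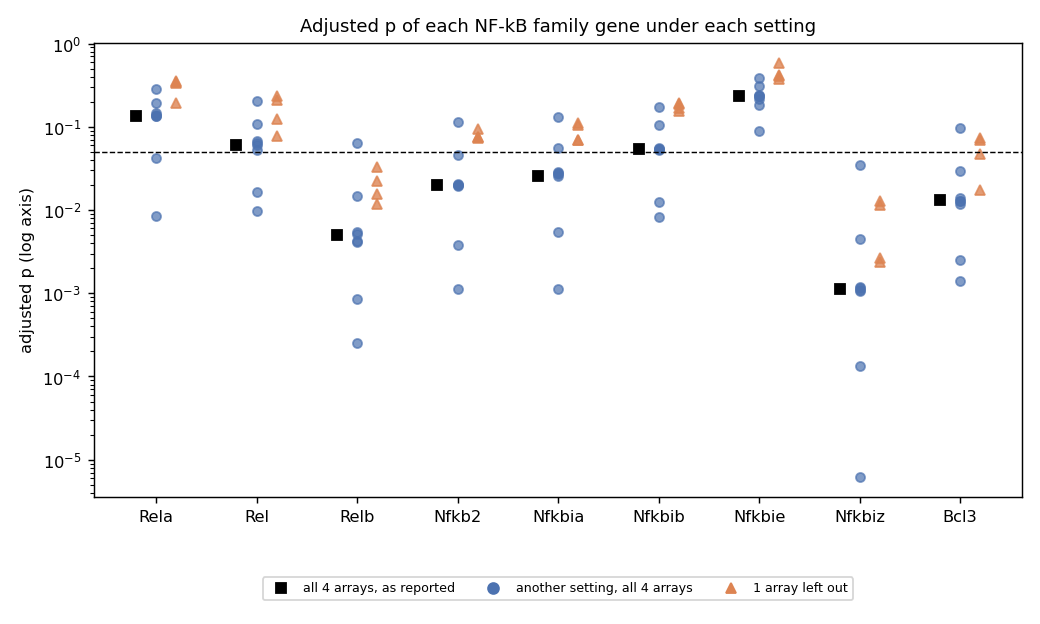
Adjusted p of each NF-kB family gene (log axis) in the fit reported (square), in 8 other settings with all 4 arrays (circles) and with 1 array left out (triangles); the dashed line is 0.05. All points of Nfkbiz lie below the line (highest 0.0348) and all points of Nfkbie above it (lowest 0.0891).

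The genes nearest to Nfkbiz and Relb in pattern were found by the root mean square distance between log2 values centred on each gene's mean over the 4 arrays, among genes that pass the same filter on dim genes. With 4 arrays in 2 groups this measure mostly matches the size of the step. Nearest to Nfkbiz were Hbegf (distance 0.04, log2 change -1.27), which encodes a ligand of the EGF receptor, Aloxe3 (0.05, -1.21), which encodes a lipoxygenase of the epidermis, the phosphatase gene Dusp5 (0.05, -1.28) and Ehf (0.05), which encodes an epithelial ETS factor. Ehf read 4.57 and 4.62 in scramble, while both of its shLDHA arrays were below 4.19, the level below which 95% of 1105 olfactory receptor genes lay. These genes are taken as silent here, so the size of the fall of Ehf and its place in this order are uncertain. Nearest to Relb were Ccbe1 (0.03, -0.94), Cep170 (0.04, -0.98), Cp (0.04, -0.94), which encodes ceruloplasmin, and Masp1 (0.05, -0.88), a protease gene of the lectin pathway of complement.

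Upstream of the family, genes of kinases and adaptors that activate NF-kB held calls in both directions. Of 30 listed, 26 were tested, with a median log2 change of 0.02. Of these 2 fell (7.69%) and 1 rose (3.85%), against 2.99% lower and 3.37% higher calls over all genes. Traf1, a TNF receptor adaptor that is also an NF-kB target, fell by 0.80 on the log2 scale (SE 0.10, adjusted p = 0.00855 by limma), and Bcl10, an adaptor of the CARD signalling complex, fell by 0.58 (SE 0.08). Tab1, a regulatory partner of the kinase TAK1, rose by 0.45 (SE 0.08). Ikbke (-0.37), which encodes an IKK-related kinase, did not pass, nor did Traf5, which read below the olfactory receptor level on every array. Without any 1 array a single gene of the list was called lower and 0 higher.

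Of the core kinase genes, Chuk, which encodes IKK alpha, was not tested here. Ikbkb, Ikbkg and Map3k14, chosen by role after their values were seen, were not past the threshold. Ikbkb, the gene of the canonical kinase IKK beta, had a log2 change of -0.02 (SE 0.10, adjusted p = 0.957 by limma), and its arrays overlapped. Ikbkg, the gene of the IKK scaffold NEMO, had one of 0.24 (SE 0.09, adjusted p = 0.207). Map3k14, the gene of the noncanonical kinase NIK, had a mean of 5.07 ± 0.09 in scramble and 5.48 ± 0.30 in shLDHA (SD, n = 2 each), and both knockdown arrays were above the control arrays. Its change of 0.41 (SE 0.15, adjusted p = 0.172) did not pass.

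Receptors that signal to NF-kB went both ways. Of 16 tested, 5 rose and 4 fell, against 3.37% higher and 2.99% lower calls over all genes. Calls in both directions were thus more frequent than among all genes, although the median log2 change was 0.01. Tlr3, the endosomal sensor of double-stranded RNA, rose by 1.32 (SE 0.10, adjusted p = 0.00170 by limma), and the receptor genes Il1r1 and Tnfrsf1b rose by 0.75 and 0.62. Il1rap, the co-receptor of Il1r1, fell by 0.72 on the log2 scale at its brightest probe set, while 2 dim probe sets of the gene changed by 0.21 and -0.02. Cd40, a receptor of the noncanonical pathway, was called lower, from 4.56 in scramble to a level in shLDHA that was below the olfactory receptor level, so the size of its fall is uncertain. The other calls, outside the rule for named genes, were rises of Tlr5 (0.55) and Tlr4 (0.47), sensors of flagellin and lipopolysaccharide, and a fall of Tnfrsf12a (-0.44), the receptor gene of TWEAK. Tnfrsf11a, the receptor gene of RANKL, was also called lower, but it read below the olfactory receptor level on every array, so no size is given. Without 1 array, 1 to 3 receptors were called higher and 0 to 2 lower.

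Among genes that restrain the pathway, 3 of 14 fell (21.4%) and 0 rose, against 2.99% and 3.37% of all genes. The median log2 change was -0.02. Zc3h12a, which encodes the RNA-degrading protein regnase, fell by 1.36 on the log2 scale (SE 0.10, adjusted p = 0.00157 by limma). Tnip1 and Tnfaip3, the genes of the ubiquitin-binding ABIN protein and of A20, fell by 0.57 and 0.55. All 3 are known as NF-kB target genes as well and are in the list of targets too, as is Nfkbid. Otulin, the gene of a deubiquitinase of linear chains, had a change of 0.33 and Pdlim2 one of -0.26, and neither passed. Nfkbid, the gene of a further nuclear IkB protein that is outside the 10 and was named after its value was seen, had a change of -0.19 (SE 0.12, adjusted p = 0.447). Without any 1 array, 1 of the 14 was called lower.

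Target genes of NF-kB outside the family were mostly lower. Of 35 listed, 33 were tested, with a median log2 change of -0.55. Of these 20 fell (60.6%, against 2.99% of all genes). Irf1 (0.49, named after its value was seen) was the 1 that rose (3.03%, against 3.37% of all genes). The list was chosen with earlier results of these arrays known, so its direction is no independent evidence. The 5 with the smallest p-values were the cytokine gene Il1a (-5.08), Lcn2 (-3.77), the chemokine genes Cxcl1 (-2.82) and Ccl5 (-3.15) and Csf3 (-3.08). Csf3 is the gene of G-CSF. The changes of these 5 were larger than that of any measured NF-kB or IkB gene. Whether Lcn2 depended on Nfkbiz in these cells was not tested. Of the 12 targets that did not pass, Sod2, Vcam1, Mmp9 and Plau, chosen after their values were seen, read above the olfactory receptor level on every array. Their log2 changes were -0.07, -0.02, 0.10 and -0.22. Ccl2, Il6, Saa3, Cxcl2, Icam1, Cd83 and Il1b read below the olfactory receptor level on every array and are named for this reason. Their changes could not be measured. Of the targets called lower, Csf2, Cxcl10 and Tnf, named likewise, read below that level on both shLDHA arrays. Tnf read only 4.25 and 4.16 in scramble. The sizes of these falls are uncertain. Without 1 array, 13 to 16 of the 33 were called lower.

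**Figure D5:**
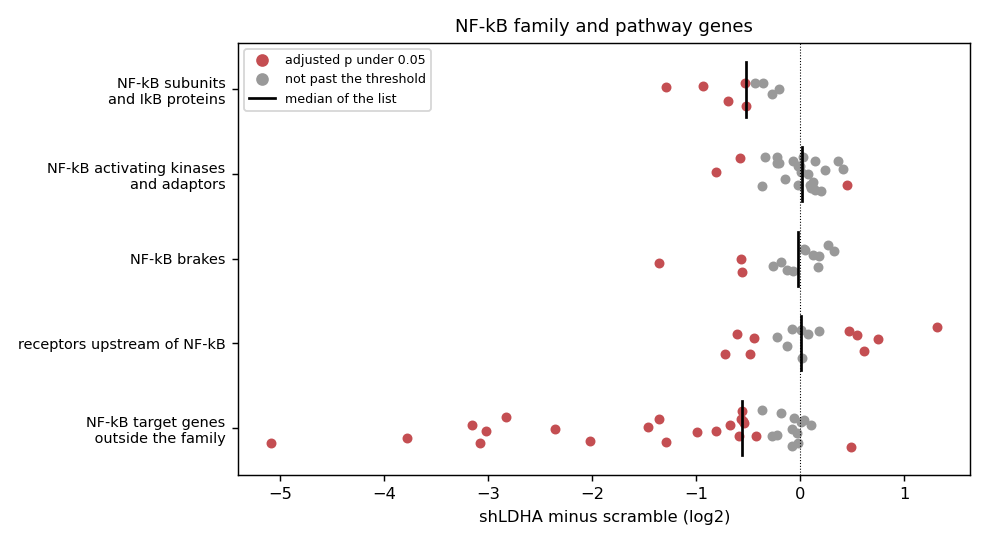
Log2 change (shLDHA minus scramble) of each gene of the NF-kB family and of 4 lists of pathway genes, in red where the limma adjusted p was under 0.05, with a line at the median of each list. The family (median -0.52) and its targets (-0.55) lie to the left of 0, and the medians of activators (0.02), brakes (-0.02) and receptors (0.01) lie near it; 4 brakes and 1 activator are also among the targets.

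The array medians were 3.87 and 3.87 in scramble and 3.9 and 3.87 in shLDHA. Quantile normalization, usual in RMA, makes arrays alike in level, so this says little about the samples. The knockdown was visible in the Ldha transcript. Ldha read 6.69 and 6.96 in scramble and 6.31 and 6.15 in shLDHA, a log2 change of -0.59 (SE 0.12, adjusted p = 0.0390 by limma), and passed in 7 of the 12 alternative settings. All values of the 9 family genes, 5.43 to 10.27, lay above the olfactory receptor level of 4.19. All 8 epithelial markers lay above that level on every array, and Epcam and Krt8 rose by 0.53 and 0.47 while Cldn7 fell by 1.06 on the log2 scale. Of 11 leukocyte markers 2, Cd68 and Cd14, lay above it and the pan-leukocyte gene Ptprc did not; the mean level of the list was 3.56 to 3.69 over the arrays, and Cd68 fell by 0.91 on the log2 scale. Of 8 fibroblast markers 1, Pdgfra, lay above it and 0 passed the test. The part of Cd68 in the family's changes was not tested.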

How the data were processed

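Total RNA of 4 samples, 2 per group, was measured on Affymetrix whole-transcript arrays. The values the authors deposited are on the log2 scale; the submitters' processing notes name RMA and R 3.4.0, and RMA usually corrects background, quantile normalises and summarises probe sets. For the annotation version, no source used here gives it. Quantile normalization hides a change shared by most transcripts, and a probe set may not tell isoforms apart.

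Of 41345 probe sets, 23521 had exactly 1 gene symbol, 1814 had several and 16010 none. The brightest probe set of a gene was kept, leaving 22180 genes, without a filter on dim genes; 0 columns were left out. Groups were tested two-sided by lmFit and eBayes of limma 3.58.1 (R 4.3.3), with 2 residual and 4.52 prior degrees of freedom, and the code was tested on simulated data. Depth in reads does not apply, and the number of arrays limits the precision. The planned difference Nfkb2 minus Nfkb1 was not run. Members and lists were chosen with earlier results of these data known. Named were all members, up to 5 genes of each pathway list with the smallest p, the 4 genes nearest to the 2 members with the smallest p, and Ldha; others are marked. The alternatives were a replicate block, a filter, 2 normalizations, 2 treatments of probe sets, 2 variance models and each array left out. Figures were drawn with matplotlib 3.10.9.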

Additional observations from a re-analysis of the deposited data

How the results depend on the processing

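All 9 family genes kept a negative log2 change in each of the 12 alternative settings, but only the 2 normalizations could have changed a sign. The others keep the estimates of these genes, or drop 1 array from groups that do not overlap. The shift of Relb minus Rela stayed between -0.82 and -0.51. It was not taken with the filter, the 2 variance models or every probe set. Of the settings used for it, only a repeated quantile normalization could have changed its sign. The counts of calls moved more. Over all genes, 1410 were called in the fit reported and 838 with the replicate number as a block, 2836 of 11090 genes at or above the median level, 2806 with a trend in eBayes, 128 with every probe set tested, and 370 to 636 without 1 array, where 1 residual degree of freedom is left and the lone array of a group is assumed to vary like the others. Of the family, 5 were called in the fit reported, 8 among genes at or above the median level, 8 with a trend, 1 (Nfkbiz) with every probe set, and 2 to 3 without 1 array. The fits without 1 array had fewer arrays, the filtered fit had fewer genes and the fit of every probe set had more features (41345); beyond that, the cause was not tested. With the replicate block 4 members were called, Nfkbia being lost. The labels do not say whether same-numbered arrays share more than a number. Their deviations from the group means correlated at -0.03 over all genes tested, which does not show how the samples were handled. For Relb minus Rela the paired exact permutation test gave p = 0.5, the smallest that 2 pairs allow.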
